A study of Mus musculus with 48 samples.

Results

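Heme and iron handling was described from 9 mouse genes, chosen by name with earlier results of these data known. They were Hmox1, Blvra and Blvrb for heme degradation, Fth1 and Ftl1 for iron storage, and Slc40a1, Slc11a1, Slc11a2 and Tfrc for iron transport. All 9 were among the 34617 gene rows used. All 9 passed the filter of a mean of at least 1 TPM over both groups together, as did 11072 genes in all. The cells were mouse bone marrow lines held as progenitors by ER-Hoxb8, a fusion of the homeobox factor Hoxb8 with the hormone-binding part of the estrogen receptor. The same lines mature when the activity of the fusion is lost. Each of 24 clones (numbers 1 to 13, 15 to 24 and 26) gave 1 RNA library labelled as monocytes (the monocyte group, n = 24) and 1 labelled as granulocyte-monocyte progenitors (the progenitor group, n = 24). Both groups carried ER-Hoxb8, and the labels give medium with serum, antibiotics and stem cell factor for the cells, with no strain, age or further agent. The transgene makes these lines a model of immortalised clones, not of cells taken from marrow.

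Heme oxygenase opens the heme ring, releasing iron, carbon monoxide and biliverdin, and biliverdin reductases turn biliverdin into bilirubin. The freed iron is either caged in ferritin, a shell built of heavy and light chains, or exported by ferroportin, while transferrin receptor brings new iron in. Macrophages that clear old red cells are the best known site of this recycling, and Hmox1 and the ferritin genes are classic targets of the transcription factor Nrf2 and its heme-sensing antagonist Bach1. When iron is scarce, the iron regulatory proteins bind a hairpin named the iron-responsive element (IRE). A hairpin in the 5′ UTR then blocks translation, and hairpins in the 3′ UTR protect the mRNA from decay. TPM therefore do not show the part of this control that acts on translation.

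In mm10 the genes lie at chr8:75093621-75100589 (Hmox1, plus strand), chr2:127070665-127097084 (Blvra, plus), chr7:27447978-27466144 (Blvrb, plus), chr19:9980598-9985098 (Fth1, plus), chr7:45457944-45459884 (Ftl1, minus), chr1:45908068-45926523 (Slc40a1, minus), chr1:74375195-74386062 (Slc11a1, plus), chr15:100387898-100425072 (Slc11a2, minus) and chr16:32608920-32632794 (Tfrc, plus), and all are protein-coding. The IRE hairpins are shown for the members in which such a site was found, in the 5′ UTR or in the 3′ UTR. In the mm10 annotation, a search for a bulged C, 5 paired bases, the loop CAGTGN and the 5 pairing bases found a site in the 5′ UTR of Fth1, Ftl1 and Slc40a1 and 4 sites in the 3′ UTR of Tfrc. The sites lie at chr19:9982732-9982761 on the plus strand (Fth1), chr7:45459778-45459807 on the minus strand (Ftl1) and chr1:45925464-45925493 on the minus strand (Slc40a1). Those of Tfrc lie on the plus strand at chr16:32631219-32631248, chr16:32631598-32631627, chr16:32631663-32631692 and chr16:32631710-32631739, in that order below. Capitals mark the bulged C and the loop of 6 bases, and each site is written 5′ to 3′.
Fth1: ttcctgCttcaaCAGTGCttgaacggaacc
Ftl1: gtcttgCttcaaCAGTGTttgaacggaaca
Slc40a1: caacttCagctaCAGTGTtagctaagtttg
Tfrc site A: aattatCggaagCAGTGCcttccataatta
Tfrc site B: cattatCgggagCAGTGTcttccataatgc
Tfrc site C: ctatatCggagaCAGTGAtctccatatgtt
Tfrc site D: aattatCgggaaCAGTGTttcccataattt
Both ferritin sites carry the same paired bases, ttcaa before the loop and ttgaa after it, whereas the Slc40a1 site and each Tfrc site have their own. Such a hairpin was present in the 5′ UTR of 28 of 21875 protein-coding genes (0.128%) and in the 3′ UTR of 127 (0.581%). None was found in Hmox1, Blvra, Blvrb, Slc11a1 or Slc11a2. The search needs a fully paired stem, so an imperfect hairpin such as the one known in Slc11a2 would be missed.

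TPM are corrected for transcript length, so levels of different genes can be set side by side, but they do not tell how deeply a library was sequenced. Between 9436 and 10717 genes reached 1 TPM in monocyte libraries, and between 8240 and 11030 in progenitor libraries. Among progenitor libraries those of clones 21 and 26 had the most genes at 0 (23247 and 20098), with clone 13 next (17926). Summed monocyte markers had a median of 11725 TPM in monocyte libraries (range 2160 to 20747) and 180 TPM in progenitor libraries (59.9 to 1352). Of the 9 markers 8 were higher in monocytes, and Ccr2 was lower (log2 change -0.97). Summed progenitor markers had a median of 606 TPM in monocyte libraries (24.9 to 7016) and 3882 TPM in progenitor libraries (1760 to 7002), and 6 of 6 were lower in monocytes. The monocyte libraries of clones 22 (7016 TPM), 19 (3620 TPM) and 17 (3279 TPM) were the highest in progenitor markers. All 10 neutrophil markers were also higher in monocytes, with a median sum of 56863 TPM (383 to 136184) against 36.0 TPM (9.43 to 8509) in progenitors. In monocyte libraries S100a9 (mean 28870 TPM) and S100a8 (21091 TPM) were the largest parts of the neutrophil sum. Lyz2 (mean 9113 TPM) was the largest part of the monocyte marker sum there. The 7 macrophage markers tested, of 10 listed, were higher too, with median sums of 1133 and 14.7 TPM in monocytes and progenitors. Mast cell and basophil markers were lower in monocytes (5 of the 5 tested, median sums of 52.1 and 1450 TPM in monocytes and progenitors), and the 2 eosinophil markers tested were higher (114 and 1.07 TPM). The part of these other cell programmes in the results below was not tested, and in bulk RNA fewer cells of a type cannot be told apart from less RNA per cell. Erythroid markers summed to at most 4.47 TPM in any monocyte library, with Hba-a1 and Slc4a1 at 0 in all 24, and to between 0.674 and 212 TPM in progenitor libraries.

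Of the 9 genes, 7 were higher in monocytes, Tfrc was lower, and Slc11a2 did not pass. The test was a limma fit of log2(TPM + 1), blocked by clone, with Benjamini-Hochberg adjustment over all 11072 genes, and a gene passed at an adjusted p under 0.05. Over all genes 68.8% passed, 32.4% as higher and 36.5% as lower in monocytes, so a passing gene is common in this comparison and the size of the change says more than the call. The median change of the 9 genes was 2.98 on the log2 scale, beside -0.06 over all genes tested. Without clones 9, 18, 19 and 23, which stood apart in markers described below, the split was again 7 higher, 1 lower and 1 not passed.

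**Figure D1:**
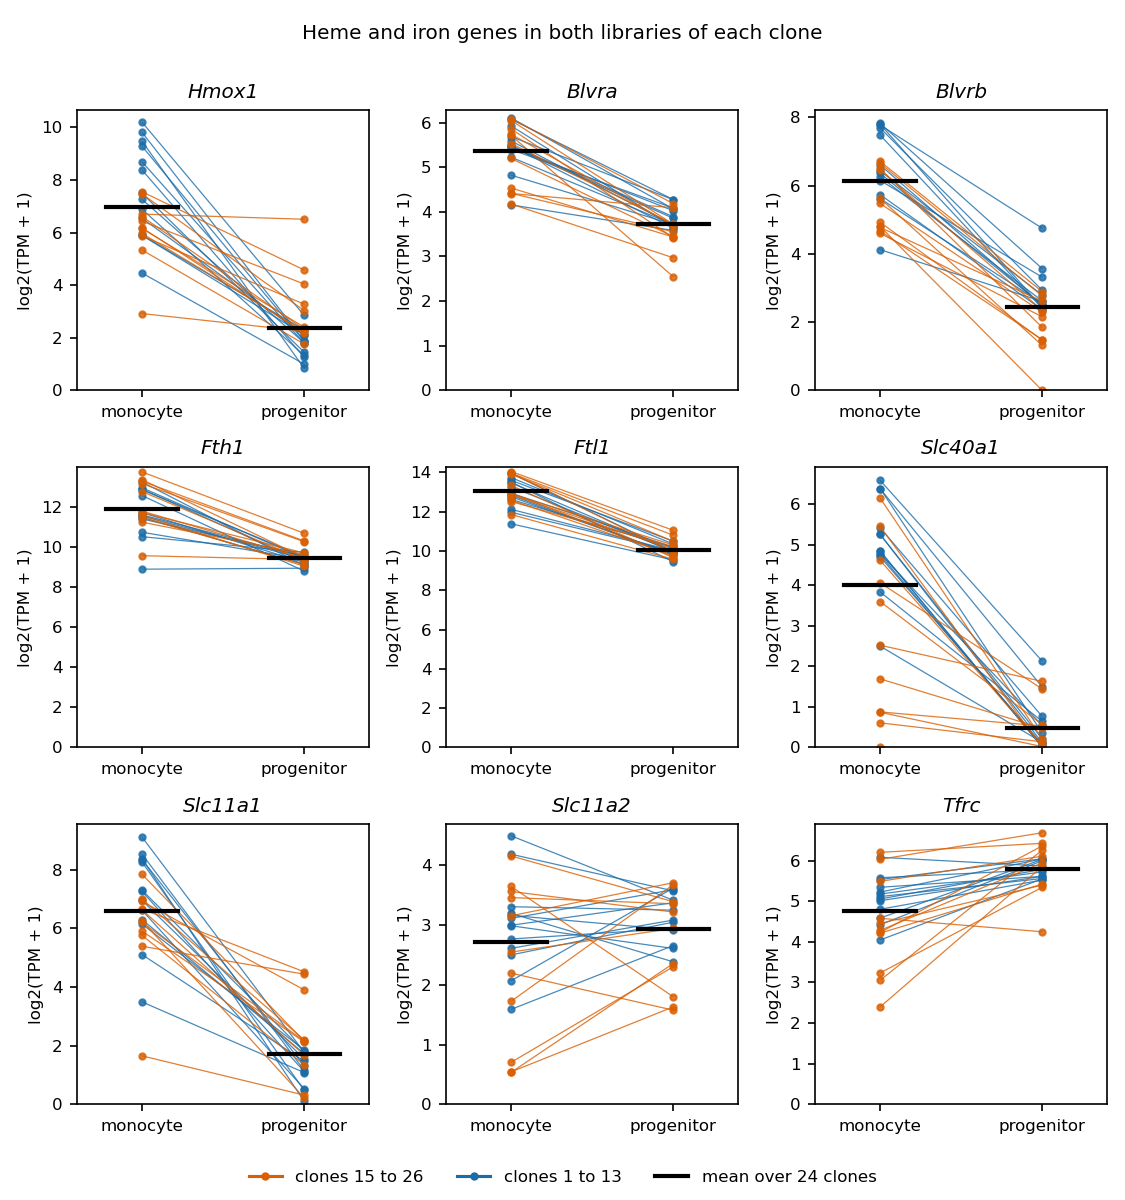
Levels of the 9 genes as log2(TPM + 1) in the monocyte library (left) and the progenitor library (right) of each clone, joined by a line, with clones 15 to 26 in orange, clones 1 to 13 in blue and black bars for the mean over 24 clones. For 7 genes nearly all lines run down to the right, those of Slc11a2 cross, and those of Tfrc run up in 22 of 24 clones.

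The mRNA of each heme degradation gene of the set, Hmox1, Blvra and Blvrb, was higher in monocytes. Hmox1, the inducible heme oxygenase, ranged in monocytes from 6.58 TPM (clone 19) over a median of 99.9 TPM to 1171 TPM (clone 1), against 0.790 TPM (clone 11), 3.44 TPM and 90.0 TPM (clone 23) in progenitors. Its means were 241 ± 306 TPM in monocytes and 8.32 ± 18.1 TPM in progenitors (SD, n = 24 each). It rose by 4.59 on the log2 scale (SE 0.41, adjusted p = 1.40e-10, limma) and was higher in the monocyte library of 24 of 24 clones. The groups overlapped, because the lowest monocyte libraries (clones 19 and 9, the second at 21.02 TPM) lay below the highest progenitor libraries (clones 23 and 24, the second at 22.9 TPM). The spread between clones was wide: the fold in TPM within a clone ran from 1.15 in the lowest to 896 in the highest, with a median of 22.6.

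Blvrb, a biliverdin and flavin reductase, also rose. It ranged from 16.4 TPM (clone 9) over a median of 78.6 TPM to 226 TPM (clone 5) in monocytes, against 0 (clone 21), 4.65 TPM and 25.97 TPM (clone 1) in progenitors. The change was 3.69 (SE 0.18, adjusted p = 9.30e-16, limma), with the monocyte library higher in 24 of 24 clones. Blvra, the main biliverdin reductase, changed less. It ranged from 16.8 TPM (clone 9) over 43.6 TPM to 67.8 TPM (clone 5) in monocytes, against 4.85 TPM (clone 24), 12.2 TPM and 18.4 TPM (clone 1) in progenitors, a change of 1.63 (SE 0.13, adjusted p = 1.46e-11, limma) seen in 24 of 24 clones. The order of the reductases turned over between states: Blvra was above Blvrb in 4 of 24 monocyte libraries and in 23 of 24 progenitor libraries, and the log2 ratio of Blvra to Blvrb was lower in the monocyte library of every clone. Monocyte levels of Hmox1, Blvrb and Slc11a1 were led by the same 4 clones, 1, 5, 11 and 13.

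Ferritin mRNA was the most abundant of the set and rose in both chains. Ftl1, the light chain, ranged from 2666 TPM (clone 9) over a median of 7840 TPM to 16869 TPM (clone 23) in monocytes, against 698 TPM (clone 11), 1008 TPM and 2123 TPM (clone 23) in progenitors. Its change was 2.98 (SE 0.13, adjusted p = 2.34e-17, limma), and it was the 1 member whose groups did not overlap, as was so for 1.7% of all genes tested and, with monocytes the higher group, for 1.14%. Fth1, the heavy chain with the ferroxidase activity, ranged from 473 TPM (clone 9) over 3352 TPM to 13656 TPM (clone 23) in monocytes, against 442 TPM (clone 11), 683 TPM and 1640 TPM (clone 23) in progenitors. It rose by 2.44 (SE 0.21, adjusted p = 7.85e-11, limma) and was higher in the monocyte library of 23 of 24 clones. Clone 9 was the exception, with 473 TPM as monocytes and 489 TPM as progenitors. Together the chains took a median of 1.12% of all TPM in monocytes (0.315% in clone 9 to 3.06% in clone 23) and 0.169% in progenitors (0.114 to 0.377%).

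The light chain led the heavy chain in nearly every library, and more so in monocytes. The log2 ratio of Fth1 to Ftl1 averaged -1.13 ± 0.57 in monocytes and -0.59 ± 0.29 in progenitors (SD, n = 24 each), it was above 0 in 1 monocyte library and no progenitor library, and it was higher in the monocyte library of 5 of 24 clones. Ferritin genes have many near-identical copies in the mouse genome, among which reads can be split. Of 17 annotated copies of Ftl1 with at least 85% identity over at least 50% of the coding length, 13 were in the table, and they took a mean of 0.648% of the Ftl1 family in monocytes and 0.708% in progenitors. The closest, Ftl1-ps1, with 99.6% identity, averaged 41.0 TPM in monocytes and 4.79 TPM in progenitors. The 2 copies of Fth1 took 0.0576% in monocytes and 0.0614% in progenitors. With the copies added to their genes the changes were again 2.98 for Ftl1 and 2.44 for Fth1. A further count of rows named as ferritin found 15 besides the main genes, 9 of them at 0 in every library, with summed means of 47.2 TPM in monocytes and 5.76 TPM in progenitors.

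**Figure D2:**
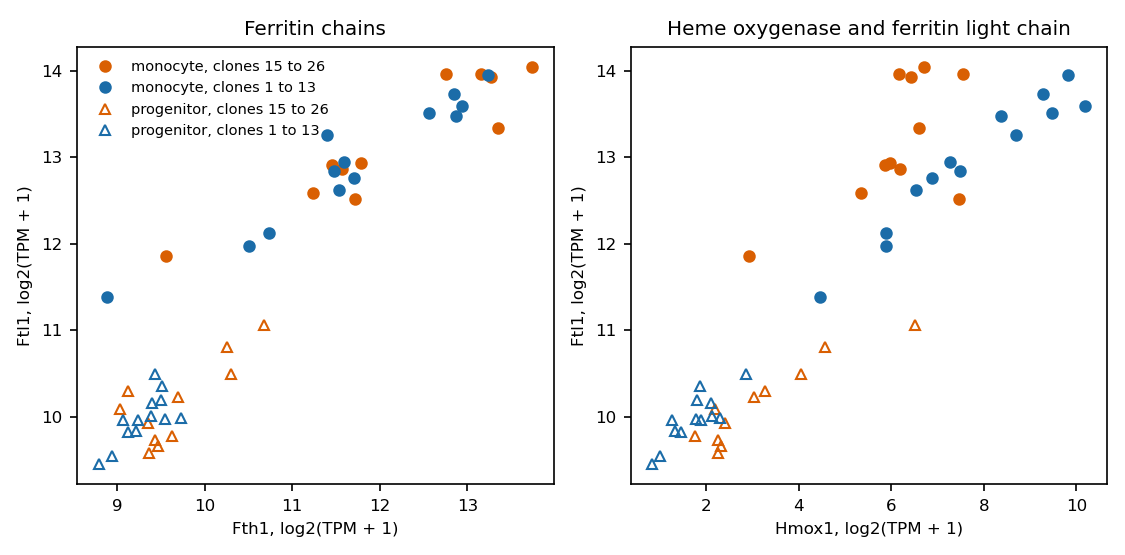
Ftl1 against Fth1 (left) and against Hmox1 (right), as log2(TPM + 1), with filled circles for monocyte libraries, open triangles for progenitor libraries, orange for clones 15 to 26 and blue for clones 1 to 13. The ferritin chains lie along 1 band in both states, while on the right clones at like Ftl1 can differ in Hmox1, as in monocyte libraries of clone 26 (15978 TPM of Ftl1, 70.4 TPM of Hmox1) and clone 5 (15757 and 896 TPM).

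Of the 4 iron transport genes 2 rose, 1 fell and 1 did not pass. Slc40a1, which encodes ferroportin, the iron exporter, was near the floor in progenitors. It ranged from 0 (clone 26) over a median of 25.6 TPM to 95.6 TPM (clone 1) in monocytes, against 0 (clones 21 and 26), 0.159 TPM and 3.38 TPM (clone 1) in progenitors. The change was 3.52 (SE 0.37, adjusted p = 2.26e-09, limma), with 23 of 24 clones higher as monocytes and clone 26 listed at 0 in both states. Monocyte libraries of clones 18 (0.523 TPM), 19 (0.825 TPM) and 17 (0.836 TPM) were also under 1 TPM. The size of the change depends on the pseudocount: it was 5.19 on log2(TPM + 0.1) and 2.10 on log2(TPM + 5). Slc40a1 averaged 0.544 TPM in progenitors, so it passed the filter on mean TPM only through its monocyte libraries. The progenitor libraries of clones 21 and 26, at 0 for Slc40a1, also held the most genes at 0 of their group.

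Slc11a1, or Nramp1, the metal pump of the phagosome membrane, showed the largest change of the set on log2(TPM + 1) over all 24 clones. On log2(TPM + 5) Hmox1 changed as much (3.75, beside 3.73 for Slc11a1), and by the ratio of mean TPM Slc40a1 led (53.7, beside 37.9 for Slc11a1). Slc11a1 ranged from 2.15 TPM (clone 19) over 99.1 TPM to 550.0 TPM (clone 1) in monocytes, against 0.0774 TPM (clone 11), 2.07 TPM and 21.9 TPM (clone 23) in progenitors. It rose by 4.87 (SE 0.38, adjusted p = 7.07e-12, limma) and in 24 of 24 clones. Its relative Slc11a2, or DMT1, carries iron out of endosomes after transferrin uptake, and it averaged 7.30 ± 5.41 TPM in monocytes and 7.31 ± 3.13 TPM in progenitors (SD, n = 24 each). The monocyte libraries were the more spread, from 0.450 TPM (clone 20) over 6.95 TPM to 21.5 TPM (clone 5), against 1.98 TPM (clone 26), 7.37 TPM and 12.1 TPM (clone 22) in progenitors. The change of -0.22 (SE 0.19, adjusted p = 0.315, limma) did not pass, and 11 of 24 clones were higher as monocytes. When mitochondrial, Gm and pseudogene rows were left out and TPM rescaled, which moved the median of all genes to -0.25, Slc11a2 stood at -0.47 (adjusted p = 0.0364, limma). Slc11a1 was above Slc11a2 in 24 of 24 monocyte libraries and in 4 of 24 progenitor libraries.

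Tfrc, the transferrin receptor and the main route of iron into dividing cells, was the 1 member that fell. It ranged from 4.27 TPM (clone 26) over a median of 29.1 TPM to 72.6 TPM (clone 17) in monocytes, against 18.0001 TPM (clone 24), 55.4 TPM and 102 TPM (clone 22) in progenitors. The change was -1.04 (SE 0.19, adjusted p = 2.00e-05, limma), with the monocyte library lower in 22 of 24 clones. The exceptions were clone 11, with 66.7 TPM as monocytes and 57.4 TPM as progenitors, and clone 24, higher as monocytes by 0.33 on the log2 scale. Of the 3 highest monocyte libraries for Tfrc (clones 17, 11 and 22), clones 17 and 22 were among the 3 with the highest progenitor marker sums. Clone 19, the other of those with the highest sums, had 20.9 TPM of Tfrc as monocytes, below the median. The progenitor library of clone 24 was the lowest of its group for Tfrc and for the summed progenitor markers (1760 TPM), and held the fewest genes with at least 1 TPM.

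By mean TPM the order in monocytes was Ftl1, Fth1, Hmox1, Slc11a1, Blvrb, Blvra, Tfrc, Slc40a1 and Slc11a2. In progenitors it was Ftl1, Fth1, Tfrc, Blvra, Hmox1, Slc11a2, Blvrb, Slc11a1 and Slc40a1. Between libraries the levels of neighbours in these orders mostly overlapped. On the log2 scale their mean ± SD ranges overlapped except between Fth1 and Hmox1 in monocytes, and between Fth1 and Tfrc and between Tfrc and Blvra in progenitors. Within a clone Ftl1 was above Fth1 in 23 of 24 monocyte and 24 of 24 progenitor libraries. Some neighbours were less fixed. In monocytes Hmox1 was above Slc11a1 in 14 of 24 libraries and Tfrc above Slc40a1 in 16. In progenitors Slc11a2 was above Blvrb in 17 of 24. The place of Hmox1 in progenitors rests on a few high libraries, since it was above Slc11a2, the next gene in the order, in 5 of 24 clones.

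The clones fall into 2 sets by number, seen in these data and named by no label: clones 15 to 26 (n = 11) and clones 1 to 13 (n = 13). Whether a change differed between them was tested by limma on the difference within each clone, adjusted over 11072 genes, of which 11.4% passed. Among the members 3 of 9 passed, and each changed less in clones 15 to 26. For Hmox1 the change was 2.96 in clones 15 to 26 and 5.97 in clones 1 to 13, a difference of -3.01 (SE 0.63, adjusted p = 0.00387, limma). Hmox1 averaged 86.8 ± 53.9 TPM (SD, n = 11) in clones 15 to 26 against 371 ± 370 TPM (SD, n = 13) in clones 1 to 13 as monocytes, and 15.1 ± 25.6 against 2.58 ± 1.45 TPM as progenitors. The progenitor mean of clones 15 to 26 is raised by clone 23 (90.0 TPM), the medians were 4.30 and 2.51 TPM, and no test was made within a state. For Slc40a1 the change was 2.31 in clones 15 to 26 and 4.54 in clones 1 to 13 (difference -2.24, SE 0.62, adjusted p = 0.0215, limma) and it averaged 15.7 ± 22.4 against 40.7 ± 28.3 TPM as monocytes. As progenitors Slc40a1 averaged 0.494 ± 0.726 against 0.586 ± 0.974 TPM. For Slc11a1 the change was 3.74 in clones 15 to 26 and 5.83 in clones 1 to 13 (difference -2.09, SE 0.68, adjusted p = 0.0450, limma), a call that was lost in 15 of the 24 fits that each left out 1 clone.

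The other 6 members did not pass this test. The differences were close to 0 for Ftl1 (0.07, SE 0.29), Fth1 (0.06, SE 0.45), Blvrb (-0.09, SE 0.40) and Blvra (0.15, SE 0.27), were -0.22 for Slc11a2 (SE 0.38), and were -0.74 for Tfrc (SE 0.35, adjusted p = 0.163, limma), which changed by -1.44 in clones 15 to 26 and -0.70 in clones 1 to 13. Without clone 24 the Tfrc difference was -0.92 (adjusted p = 0.0419, limma). The median neutrophil marker sum in monocyte libraries was 13593 TPM in clones 15 to 26 and 62303 TPM in clones 1 to 13. The sets overlapped in it. It ran from 383 TPM (clone 22) to 136184 TPM (clone 21) in clones 15 to 26. In clones 1 to 13 the range was 24261 TPM (clone 5) to 131476 TPM (clone 9). The median monocyte marker sum was 7902 against 13150 TPM and that of macrophage markers 1183 against 1083 TPM. In progenitor libraries the median sums in clones 15 to 26 and clones 1 to 13 were 457 against 101 TPM for monocyte markers, 42.3 against 11.5 TPM for macrophage markers, 91.1 against 31.1 TPM for neutrophil markers and 4.33 against 23.9 TPM for erythroid markers. Mitochondrial transcripts took 8.45 to 16.7% of TPM in progenitor libraries of clones 15 to 26 against 3.44 to 8.38% in clones 1 to 13, and 1.98 to 25.1% against 3.06 to 11.1% in monocyte libraries. Genes at 0 numbered 17937 to 20027 against 16114 to 17507 in monocyte libraries. The part of these programmes and library properties in the differences was not tested.

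**Figure D3:**
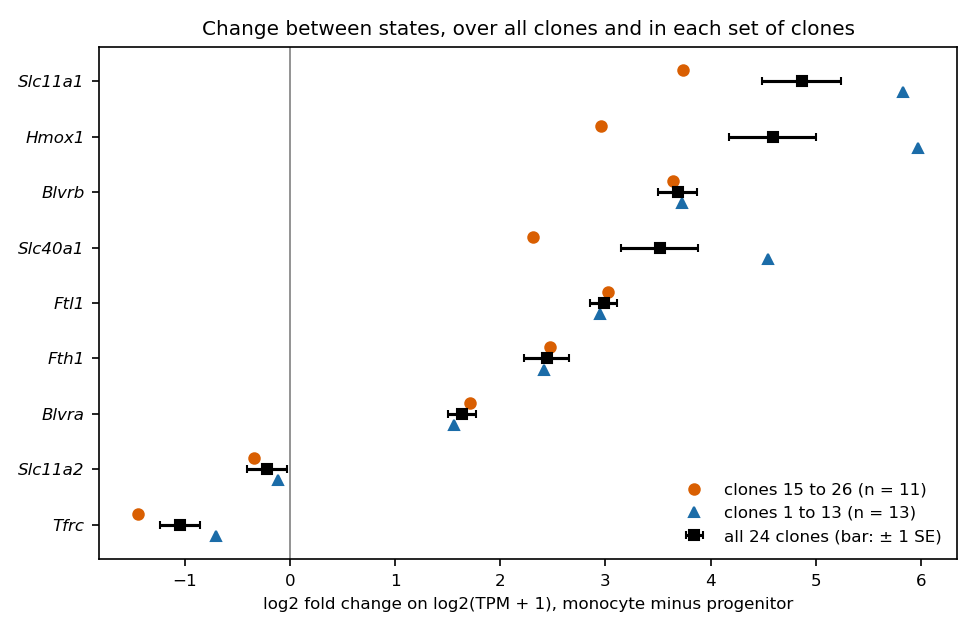
Change between states of each of the 9 genes, as a difference of log2(TPM + 1) of monocyte minus progenitor, for clones 15 to 26 (orange circles), clones 1 to 13 (blue triangles) and all 24 clones (black squares, with bars of 1 SE). The set means of Hmox1, Slc40a1 and Slc11a1 lie apart by 3.01, 2.24 and 2.09, while those of the ferritin and biliverdin reductase genes lie close together.

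A few libraries set the ends of many ranges. The monocyte libraries of clones 19 and 9 were the 2 lowest for Hmox1, Fth1, Ftl1 and Slc11a1. The same libraries had the 2 lowest macrophage marker sums, 56.0 TPM in clone 19 and 100 TPM in clone 9, beside a monocyte median of 1133 TPM. Clone 19 also had the lowest monocyte marker sum (2160 TPM) and the highest mast cell and basophil sum (2079 TPM) of its group. Clone 9 had a neutrophil sum of 131476 TPM, below only that of clone 21 (136184 TPM). Among progenitor libraries, clones 23, 24 and 18 were the 3 highest for Hmox1, Fth1 and Ftl1. Clones 18 and 23 had the 2 highest macrophage sums of that group, 411 and 258 TPM beside a median of 14.7 TPM, while clone 24 had 23.9 TPM. Without clones 9, 18, 19 and 23, left out after seeing the data, the change was 5.18 for Hmox1, 2.62 for Fth1 and 3.05 for Ftl1, and the differences between the sets of clones were -2.52 for Hmox1 (adjusted p = 0.0333), -1.62 for Slc40a1 (adjusted p = 0.258) and -1.78 for Slc11a1 (adjusted p = 0.200, all limma). So the Hmox1 difference passed without these clones and those of Slc40a1 and Slc11a1 did not.

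The wider pathway was read from 79 further genes in 7 lists, of which 78 were found under their symbols and 59 were tested. Of these 26 were higher in monocytes, 19 lower and 14 not passed, with a median change of 0.19. Over all genes tested 68.8% passed, 32.4% as higher and 36.5% as lower, to be set beside the counts of each list. Genes said to rise or fall passed the same limma fit, and of those named Steap3 had the highest adjusted p, 0.0250. Of 9 heme and oxidant response factors 6 were tested and all 6 rose, with a median of 0.94, beside 32.4% of all genes. Bach2, Spic and Nr1d1 averaged under 1 TPM and were not tested, Nr1d1 at 0.106 TPM in monocytes and 0.880 TPM in progenitors. Nfe2l2, which encodes Nrf2, averaged 58.1 ± 25.6 TPM in monocytes and 14.8 ± 5.52 TPM in progenitors (change 1.86), and its antagonist Bach1 averaged 19.7 ± 12.95 and 4.72 ± 2.82 TPM (change 1.74). Their small Maf partner Mafg changed by 1.496. With mitochondrial, Gm and pseudogene rows left out, 3 of the 6 passed, and within clones 15 to 26 alone 2 of 6 did. In heme transport and degradation 6 of the 7 tested genes were higher and 1 lower. Cd163, Flvcr2, Abcg2 and Hpx averaged under 1 TPM and were not tested, Cd163 at 0.158 TPM in monocytes and 0.981 TPM in progenitors. Hmox2, the constitutive heme oxygenase, averaged 116 ± 47.8 TPM in monocytes and 52.8 ± 13.6 TPM in progenitors (change 1.07), less of a change than that of Hmox1. The hemoglobin scavenger haptoglobin (Hp, change 5.21) and Lrp1 (4.40), the receptor for heme bound to hemopexin, rose most, Slc48a1, which moves heme out of the phagolysosome, rose by 0.76, and Pgrmc1, a heme-binding membrane protein, fell by 1.57. The change of Slc48a1 was 0.22 in clones 15 to 26 and 1.22 in clones 1 to 13 (adjusted p of the difference 0.0372, limma), and within clones 15 to 26 alone 3 of the 7 tested genes of the list were higher.

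Iron sensing and storage outside the members changed in part. Neither iron regulatory protein gene passed, Aco1 with a change of -0.01 (adjusted p = 0.968) and Ireb2 with 0.19 (adjusted p = 0.315, both limma). Fbxl5, whose product marks Ireb2 protein for destruction when iron is plentiful, rose by 1.97. Zfp36, an mRNA decay factor that acts on Tfrc mRNA in iron shortage, rose by 2.56, and Zc3h12a, an RNase that cuts Tfrc mRNA, by 0.999, making 3 of 6 sensing genes higher and none lower. Ncoa4, the receptor that takes ferritin to the lysosome, was at 575 ± 284 TPM in monocytes and 402 ± 205 TPM in progenitors (change 0.40, adjusted p = 0.187, limma), and the iron chaperones Pcbp1 and Pcbp2 did not pass. Without clones 9, 18, 19 and 23, and in clones 1 to 13 alone, Ireb2 and Ncoa4 passed as higher and 5 of the 6 sensing genes did. The 2 genes of the storage and export list that passed, Ltf (change 8.91) and Lcn2 (1336 ± 944 TPM in monocytes and 27.2 ± 53.6 TPM in progenitors), encode iron-binding proteins of neutrophil secondary granules and stand beside the neutrophil markers described above. Of 12 iron entry genes 6 were tested, and of these 3 were higher and 2 lower. Tfr2, a second transferrin receptor, averaged 0.966 ± 0.571 TPM in monocytes and 9.71 ± 4.45 TPM in progenitors (change -2.38, lower in 24 of 24 clones), and the ferrireductase gene Steap3 fell by 0.46. Mcoln1, a lysosomal channel that lets iron out, rose by 1.30, and Hfe, which binds transferrin receptor, by 1.01. Steap3 did not pass without clones 9, 18, 19 and 23, and neither Steap3 nor Hfe passed in clones 15 to 26 alone. With mitochondrial, Gm and pseudogene rows left out, or centred on the median gene, 2 iron entry genes were higher and 2 lower.

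Genes of mitochondrial iron use moved the other way. Of 20 genes for mitochondrial iron and iron-sulfur clusters 13 were lower in monocytes, 3 higher and 4 not passed, with a median of -0.66. Over all genes tested 36.5% were lower. The chaperone Hspa9 averaged 32.1 ± 18.6 TPM in monocytes and 117 ± 56.1 TPM in progenitors (change -1.88), and the electron donor Fdx1 changed by -1.43. Against the list, the mitochondrial iron importer Slc25a37 rose by 1.08, the cluster scaffold Iscu by 0.59 and Isca2 by 0.36. The change of Slc25a37 was -0.02 in clones 15 to 26 and 1.999 in clones 1 to 13 (adjusted p of the difference 0.00243, limma). Heme synthesis split, with 3 genes higher, 3 lower and 3 not passed. Alas1, the rate-limiting enzyme outside red cells, averaged 202 ± 79.5 TPM in monocytes and 36.1 ± 26.9 TPM in progenitors (change 2.64, 24 of 24 clones), Ppox, of a late step, rose by 0.89 and Slc25a38, the glycine carrier, by 0.58. Alad and Cpox, of steps in between, fell by 0.65 and 0.58. Within clones 15 to 26 alone 1 of the 9 heme synthesis genes passed, and of the 20 mitochondrial genes 7 were lower and 1 higher.

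**Figure D4:**
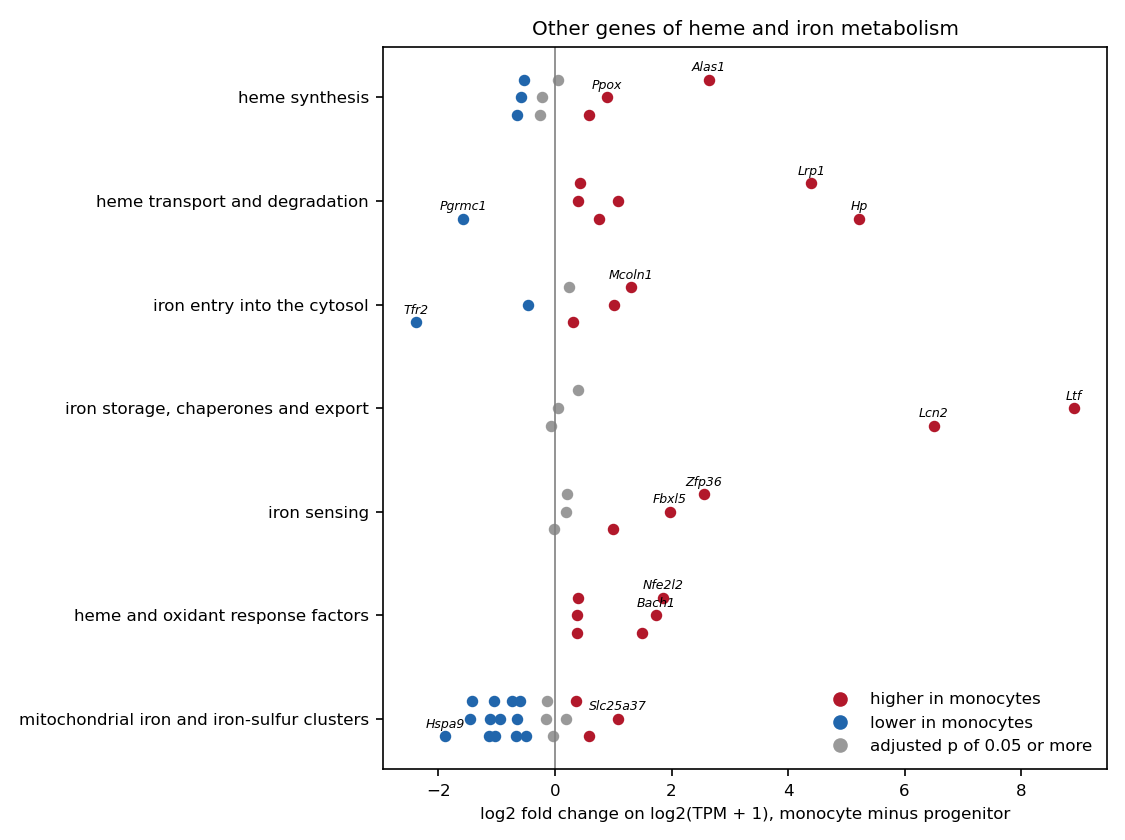
Change between states of the 59 tested genes of the 7 pathway lists, as a difference of log2(TPM + 1) of monocyte minus progenitor, 1 point a gene, red where higher in monocytes, blue where lower and grey where not passed at an adjusted p under 0.05. Points of the response factors lie right of 0, and most of those for mitochondrial iron and iron-sulfur clusters lie left of it.

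The members were also compared with 7611 genes averaging at least 5 TPM by how each library deviated from the mean of its state and set of clones (Pearson r over 48 libraries, a description with no test, in which libraries share their composition). Hmox1 and the ferritin genes were nearest to each other: the genes most like Hmox1 were Ftl1 (r = 0.850) and Fth1 (0.814), and those most like Fth1 were Ftl1 (0.905) and Prdx1 (0.904), a peroxidase gene. Ftl1 had Fth1 and Hmox1 as its nearest. For the others they were Capg (0.885) and Slc39a1 (0.863) for Blvra, Akr1a1 (0.820) and Lrp1 (0.798) for Blvrb, Ctsb (0.882) and Alcam (0.851) for Slc11a1, and Stx11 (0.779) and Rnf11 (0.755) for Slc40a1. Slc40a1 and Stx11 ran together in monocytes (r = 0.843) but little in progenitors (0.189), where Slc40a1 was near 0. Slc11a2 was nearest to Colgalt1 (0.923) and Naa50 (0.907), and Tfrc to Tmem222 (0.817) and Tomm70a (0.815).

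Whether a clone with a high level as monocytes also had one as progenitors was tested for 8 members by a one-sided permutation test of 100000 pairings, adjusted over 9570 genes, of which 3.63% passed. Of the 8, only Blvrb passed (Pearson r = 0.58, adjusted p = 0.0356, permutation test, n = 24, Spearman rho = 0.53). Its r was 0.50 within clones 15 to 26 and 0.40 within clones 1 to 13, 0.49 without the 2 clones farthest from the progenitor median, and 0.44 with each set centred (adjusted p = 0.367, permutation test, where 0.303% of genes passed). The 4 highest progenitor libraries for Blvrb, clones 1, 5, 7 and 13, were also the 4 highest for summed erythroid markers, from 40.6 TPM (clone 7) to 212 TPM (clone 1), and their part in the correlation was not tested. The coefficients of Ftl1 (0.52, adjusted p = 0.0690), Slc11a2 (0.48, 0.137), Fth1 (0.40, 0.171), Blvra (0.32, 0.319) and Tfrc (0.23, 0.407) did not pass the permutation test, nor did those of Slc11a1 (0.02, 0.697) and Hmox1 (-0.07, 0.787). Slc40a1 averaged under 1 TPM in progenitors and did not enter.

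In RefSeq promoter windows of GRCm38.p6, from 250 bases before to 50 after the start of a gene, 6 members were matched by 9 windows, with none for Hmox1, Slc40a1 or Slc11a2. The core of the antioxidant response element, TGACNNNGC on either strand, was in 1 of the 9, that of Blvra, and in 12.4% of 32851 windows. The Maf element, TGC followed directly by TGAGTCA on either strand, was in none of the 9 and in 0.155% of windows. Sequence outside these windows was not searched, so an element farther from the start of a gene would be missed.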

How the data were processed

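RNA-seq of 24 clones in both states was deposited by the authors as 1 table of TPM per gene symbol, with 34643 rows; 26 rows named as dates were left out. Salmon and mm10 are named in the submitters' processing notes, with no annotation release stated there. Groups came from the source labels, clone numbers from the titles, and the pairing by clone from the design text; the deviations of the 2 libraries correlated above 0.1 in 18 of 24 clones, and in 12 with each set of clones centred. An exact 0 in TPM can be a failed estimate. limma 3.58.1 (R 4.3.3) was run on log2(TPM + 1), two-sided, with clone as block and a mean-variance trend, over 11072 genes, so fold changes understate those of low genes; it was checked on simulated data. Hairpins were searched in GENCODE UTRs, ferritin copies with blastn 2.17.0, and correlations with numpy 2.4.6. Members, lists and sets of clones were chosen with earlier results of these data known. Besides the members, named genes were, in each list, at most 3 that passed, taken by size of change among those with 5 TPM or more in the higher group, genes passing against their list, 7 regulators whatever their result, and the 2 most similar genes per member; some genes this rule takes are not reported here. Alternatives covered pseudocount, filter, scaling, block, sets of clones and left-out clones.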

Additional observations from a re-analysis of the deposited data

Results flagged for a closer look

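The change of 3 genes differed between sets of clones by a test of the difference itself (limma on the difference within each clone, monocyte minus progenitor, clones 15 to 26 minus clones 1 to 13). The difference was -3.01 for Hmox1, higher as monocytes in 24 of 24 clones. It was -2.24 for Slc40a1, higher as monocytes in 23 of 24 clones. It was -2.09 for Slc11a1, higher as monocytes in 24 of 24 clones. Over all genes tested 1263 passed, and in 839 of these (66.4%) the change was the smaller one in clones 15 to 26. The sets carry no label, so a batch and a property of the clones cannot be told apart.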

How the results depend on the processing

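The 8 calls of members between states were kept under every alternative run: with log2(TPM + 0.1) or log2(TPM + 5), with no filter or a mean TPM of at least 5, under both scalings, with clone as a random effect, without clones 21, 24 and 26, in each set of clones alone and with any 1 clone left out (8 to 8 members, 7453 to 7852 genes). Slc11a2 alone was gained, at -0.47, with mitochondrial, Gm and pseudogene rows left out. Pairing changed little: without the replicate block 7436 genes passed in place of 7623, and 8 members. In clones 15 to 26 alone 5053 genes passed. With no filter on TPM 10926 did.

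The difference between sets passed for 3 members, for 2 to 4 with 1 clone left out and for 1 without clones 9, 18, 19 and 23. For Hmox1 the adjusted p stayed between 0.00238 and 0.0333, whereas the Slc11a1 call was lost in 7 of 9 alternatives besides those that left out 1 clone (adjusted p up to 0.200) and that of Slc40a1 in 1 of 9 (0.258). Differences that had not passed changed sign: Blvrb to 0.32 with log2(TPM + 0.1), 0.13 with those rows left out and 0.32 centred on the median gene; Slc11a2 to 0.19 centred on the median gene; and, without clones 21, 24 and 26, Blvra to -0.0527, Fth1 to -0.0879 and Ftl1 to -0.0222. With 1 clone left out they ran from -0.14 to 0.29 for Fth1, -0.0321 to 0.16 for Ftl1 and -0.28 to 0.0537 for Blvrb. The correlation between states passed for 1 member, for 0 with log2(TPM + 0.1), for 2 centred on the median gene (with Slc11a2, adjusted p = 0.0403, permutation test) and for 0 with each set centred. Uncalled coefficients turned to -0.0459 for Slc11a1 with log2(TPM + 5) and to 0.28 for Hmox1 with each set centred. The cause was not tested. Sequencing depth cannot be read from TPM, which leaves counting error unknown.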
